A study of Mus musculus with 6 samples.

Results

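Alveolar fibroblasts that express Scube2 made up 8984 of the 88616 barcodes retained from 6 aged mouse lungs, or 10.1%. They were chosen by raw counts of unique molecular identifiers (UMIs), the tags that stand for single RNA molecules. Of 94392 barcodes, those with 500 or more genes, 1000 or more UMIs and no more than 15% of UMIs from mitochondrial genes were retained. A retained barcode was taken as a Scube2 cell if it had at least 1 UMI each of Pdgfra, Tcf21 and Npnt, at least 2 UMIs of Scube2, and 0 UMIs of Tnc, Mmp3, Cdh5 and Ptprc. The levels of these 8 genes in the cells therefore follow from the choice and are given as a description.

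The lungs came from male C57BL/6 mice aged 21 months. Of the 6 libraries, 3 are labelled p16-DTR, from animals with the alleles p16-CreERT2 and R26-LSL-DTR, in which tamoxifen lets a Cre recombinase driven by p16 switch on a diphtheria toxin receptor. The other 3 are labelled control and came from p16-CreERT2 animals, so the Cre allele was present in both groups. All animals had 5 days of tamoxifen, 5 days of diphtheria toxin after 2 weeks, and another 2 weeks before the lungs were taken and digested with Liberase. Each library, from the lung of 1 mouse, was made from 9000 CD45-positive and 20000 CD45-negative sorted cells, so shares of a whole library depend on that mix. A library gave 13482 to 17332 barcodes, and the labels do not say how many came from each sorted part. The study asked how lungs of old mice change when cells with high p16 are removed.

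Alveolar fibroblasts lie in the walls between air sacs, touch the alveolar epithelium and supply it with growth signals and matrix. Tcf21 is a transcription factor of this lineage, and Pdgfra encodes a receptor for platelet-derived growth factor. Npnt encodes nephronectin, a basement membrane protein bound by the integrin whose alpha chain is encoded by Itga8. SCUBE2 is a secreted glycoprotein that helps to release lipid-modified Hedgehog ligands from the cells that make them. Tnc encodes the matrix protein tenascin C and Mmp3 encodes the protease stromelysin. Cdh5 marks endothelium and Ptprc marks blood cells.

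Libraries labelled p16-DTR held 1419, 740 and 690 Scube2 cells, and control libraries held 2927, 1465 and 1743. Median depth was similar in all 6, at 22445 to 24614 UMIs and 5150 to 5435.5 genes per cell, and the summed counts came to 16955397 to 68002746 UMIs per library. The difference between replicates was above counting error, with a chi-square per degree of freedom of 10.7 to 25.3. Any 2 libraries shared 59 to 94 barcode sequences, and 5 barcodes were Scube2 cells in 2 libraries. On the first principal component of the summed counts, which held 37.3% of the variance, the controls lay at 19.9 to 23.7 and the libraries labelled p16-DTR at -5.14, -24.5 and -36.0. The first of these thus lay nearest to the controls. The labels name no batch.

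The markers of the label were present in the chosen cells, including both that the rule did not use. Itga8 stood at 2465 ± 329 UMIs per 1e6 (CPM, mean and SD over 6 libraries), against 391 ± 109 in all other retained barcodes. Fat3, which encodes a large protocadherin, stood at 754 ± 109 CPM against 109 ± 32.4. After each cell was thinned to 10000 UMIs, Itga8 was found in 99.7% to 100% of the cells of a library and Fat3 in 80.3% to 87.4%. Pi16 and Scara5, genes of adventitial fibroblasts, which lie around vessels and airways, were low in the same cells. Pi16 stood at 9.80 ± 4.38 CPM, against 852 ± 159.6 in adventitial fibroblasts chosen by Pi16 and Col14a1. Scara5, which that choice did not use, stood at 1.01 ± 0.892 CPM against 548 ± 45.8. Other adventitial markers were less scarce, with Clec3b at 103 to 170 CPM and Mfap5 at 98.8 to 172 CPM over the libraries. Summed, 10 such markers came to 490.2 to 627 CPM in libraries labelled p16-DTR and 382 to 669.6 CPM in controls. All other retained barcodes had 1522 to 2869 CPM.

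The limit of 2 Scube2 UMIs lay inside a gradual change of these levels. The 505 cells with exactly 2 UMIs, just inside it, had 1588 ± 256 CPM of Npnt and 306 ± 82.7 of Fat3. The 605 cells with 1 UMI, just outside, had 1266 ± 238 and 234 ± 52.9 CPM. The 1070 cells without a Scube2 UMI had 499 ± 82.7 and 61.2 ± 9.62 CPM. Cells on either side of the limit were thus nearer to each other than to the cells without Scube2. Dcn, which encodes decorin and is high in adventitial fibroblasts, ran the other way, from 158 ± 63.96 CPM in all Scube2 cells to 702 ± 488, 1169.7 ± 703 and 4242 ± 595 CPM in these 3 sets. Deeper cells pass a limit in UMIs more easily, so the limit also sorts by depth.

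**Figure D1:**
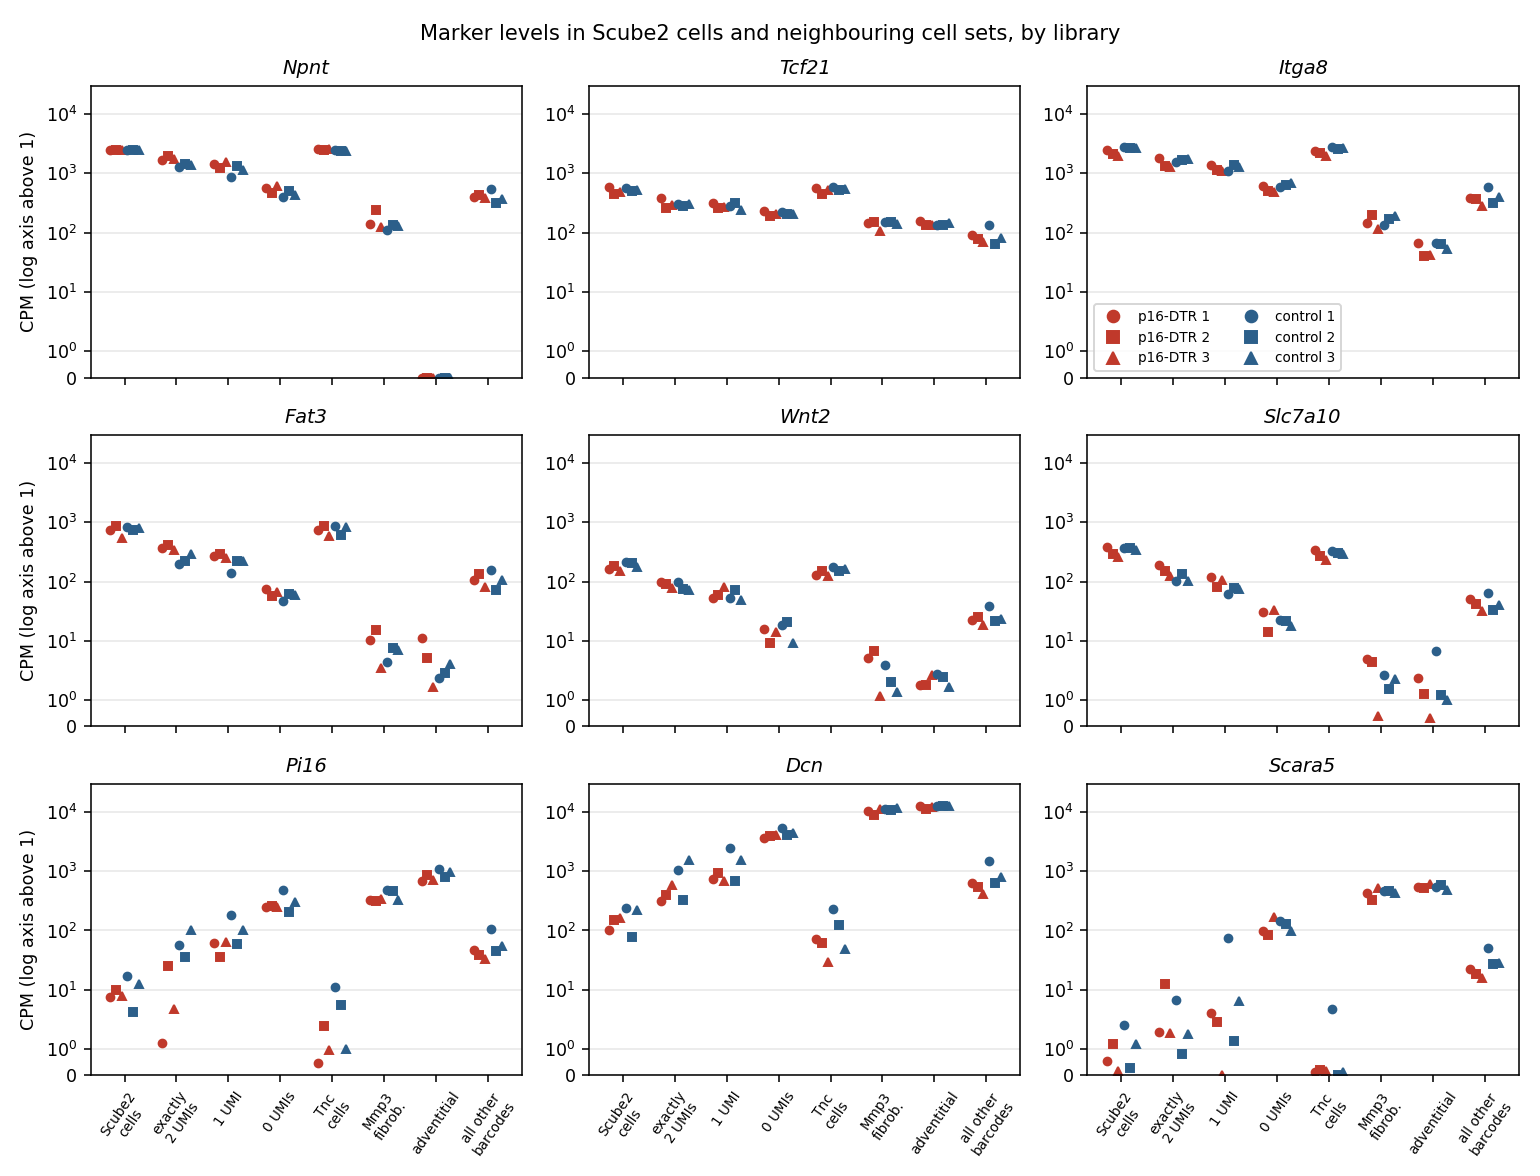
Levels of 9 genes, in CPM on an axis that is logarithmic above 1, in the Scube2 cells, in alveolar fibroblasts with exactly 2, 1 or 0 Scube2 UMIs, in Tnc cells, in fibroblasts with at least 2 Mmp3 UMIs and no Tnc or Scube2, in adventitial fibroblasts, and in all other retained barcodes. Each point is 1 library; Npnt, Itga8, Fat3, Wnt2 and Slc7a10 are lower in cells with fewer Scube2 UMIs and high again in the Tnc cells, while Pi16, Dcn and Scara5 are highest in the Mmp3 and adventitial sets.

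The genes highest in fold over all other retained barcodes include transporters, receptors and secreted proteins. All are a description, since the cells were chosen by genes that vary with them, and the other barcodes hold further alveolar fibroblasts. Ranked by the lowest fold among the 6 libraries, the leading gene after Scube2 was Slc7a10, which encodes an exchanger of small neutral amino acids, at 335 ± 47.96 CPM against 43.9. Wnt2, a Wnt ligand, stood at 183 ± 23.8 CPM, 5.54-fold to 9.47-fold above the other barcodes. Fgfr4, a fibroblast growth factor receptor, stood at 181 ± 18.7 CPM against 24.8. Receptors coupled to G proteins were also among them. Adrb3, a beta-adrenergic receptor, stood at 83.1 ± 17.7 CPM against 12.5, and Vipr2, a receptor for vasoactive intestinal peptide, at 245 ± 40.4 CPM against 37.99. Mfap4, which encodes a protein of elastic fibres, stood at 2109 ± 317 CPM against 327, and Bmper, which encodes a secreted BMP-binding protein, at 509.9 ± 145 CPM against 82.9. The others of the first 15 were Fat3, Chst8, Upk1b, Cdo1, Syt17, Slc22a3 and Ctnnd2, with lowest folds of 4.82 for Ctnnd2 to 5.25 for Fat3.

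Tnc cells had much of the same profile. Tnc cells are here alveolar fibroblasts with at least 2 Tnc UMIs and no Mmp3; there were 2409 whatever their Scube2 count, and 78 without Scube2. In the 2409, Npnt stood at 2495 ± 98.3 CPM and Fat3 at 755 ± 126, next to 2473 ± 32.6 and 754 ± 109 in the Scube2 cells. After Tnc itself, the gene lowest in Scube2 cells relative to them was Ltbp2, a latent TGF-beta binding protein family member, at 12.1 ± 7.33 CPM against 54.98 (2.82-fold to 9.19-fold lower over the 6 libraries). Thbs1, which encodes thrombospondin, stood at 776 ± 152 CPM against 1467, Loxl2, a lysyl oxidase that crosslinks matrix, at 27.2 ± 7.47 CPM against 57.8, Tnfrsf12a, a receptor for the cytokine TWEAK, at 31.5 ± 7.40 CPM against 59.7, and Tagln, an actin-binding protein, at 160.2 ± 47.7 CPM against 300.3. Trib1, Otud7a, Sgk1 and Atp8b1 came next by lowest fold. Genes higher in the Scube2 cells were led by Igfbp4, an insulin-like growth factor binding protein, at 63.3 ± 19.7 CPM against 17.6. Tex15 came next by lowest fold, at 53.8 ± 12.1 CPM against 30.4. C4b, a complement component, stood at 219.8 ± 21.3 CPM against 113, and Lrat, which esterifies retinol, at 205 ± 82.04 CPM against 127. Flrt2, Zfp970, Ccbe1, Plcxd3, Eva1c and Slc36a2 followed.

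Against the 78 Tnc cells without Scube2, folds were larger and counts thin, with 5 to 26 such cells per library. Slc7a10, Vegfd, Fgfr4, Jup, Wnt2, Adamts17, C6, 1810010H24Rik and Gja5 were higher in the Scube2 cells of every library, with lowest folds of 3.14 for Slc7a10 to 1.99 for Gja5. Vegfd, which encodes a growth factor for vessels, stood at 418 ± 53.99 CPM against 124, the latter from 234 UMIs in 6 libraries. Ltbp2, Creb5, Csmd1, Akap6, Pvt1, Tnfrsf12a, Gem, Axl and Ldlrad4 were lower. Tnfrsf12a stood at 31.5 ± 7.40 CPM against 136.

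Among the Scube2 cells of 1 library, UMIs varied most between cells for Mgp and the noncoding RNA Malat1, ranked by the lowest value over the 6 libraries. The choice limits the spread of the rule genes, which are not compared here. Variation was measured as the Fano factor, the variance of UMIs per cell over their mean after thinning to 10000 UMIs, whose median was 1.17 over 8510 genes. It can rise with the mean, which was 326 to 359 UMIs for Malat1 and 0.983 to 2.29 for Tnfaip6. The ranking therefore does not compare variation relative to level. Mgp, which encodes matrix Gla protein, had a Fano factor of 35.3 to 47.9 and was found in 99.6% to 100% of cells. Malat1 had 26.03 to 34.5 and Thbs1 20.04 to 34.4. Tnfaip6, which encodes a hyaluronan-binding protein made in inflammation, had 19.5 to 31.1 and was found in 21.5% to 35.2% of cells. Most Scube2 cells thus had no Tnfaip6 at this depth. Dcn had 18.8 to 44.03 and was found in 14.4% to 25.7% of cells, and the metallothionein gene Mt1 had 15.9 to 29.7. The others of the 10 highest were Cp (ceruloplasmin), Gm42418, Olfr1033 and Fos.

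Across cells, the markers varied together and against Mgp, to unlike degrees. The rule sets a lower limit for Scube2, Npnt and Tcf21, which shapes their values here. Spearman's rank correlation, given as a description over thinned cells that share a library and a depth, was 0.36 to 0.45 over the 6 libraries for Fat3 with Slc7a10 and 0.31 to 0.39 for Itga8 with Fat3. For Scube2 it was 0.27 to 0.37 with Itga8 and 0.29 to 0.37 with Slc7a10. For Npnt with Tcf21 it was only 0.05 to 0.16. With Mgp it was -0.46 to -0.39 for Fat3, -0.41 to -0.33 for Itga8 and -0.30 to -0.18 for Scube2. For Npnt and Tcf21 with Mgp it was -0.20 to -0.04 and -0.19 to -0.07. Cells rich in the markers thus held less Mgp in every library, least clearly for Npnt and Tcf21. With Scube2 it was -0.02 to 0.06 for the Hedgehog target Ptch1, -0.15 to -0.08 for Gli1 and -0.14 to -0.09 for Hhip; Gli1 and Hhip were scarce.

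Scube2 cells formed a smaller share of the alveolar fibroblasts in libraries labelled p16-DTR. Alveolar fibroblasts are here all retained barcodes with Pdgfra, Tcf21 and Npnt and without Cdh5 or Ptprc, 15915 in all. Their share that met the Scube2 rule was 56.2%, 35.5% and 39.9% where the label is p16-DTR, on average 43.8% ± 10.9 (SD, n = 3). In control libraries it was 62.5%, 69.1% and 62.8%, on average 64.8% ± 3.73 (SD, n = 3). Every library labelled p16-DTR lay below every control, the first one least so. The difference was -20.99 percentage points. Its exact two-sided permutation p was 0.1, the smallest that 3 against 3 libraries can give, and 0.1 after adjustment over both shares. The 95% Wilson interval of a single library, which covers counting error only, was at most 4.61 points wide.

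Among all retained barcodes, Scube2 cells made up 9.91%, 5.03% and 4.61% of libraries labelled p16-DTR, on average 6.51% ± 2.94 (SD, n = 3). The controls had 17.8%, 11.6% and 11.2%, on average 13.5% ± 3.71 (SD, n = 3). The groups did not overlap, although the highest library labelled p16-DTR came near the lowest control. The difference was -7.03 points (exact permutation p 0.1, adjusted 0.1). Alveolar fibroblasts as a whole made up 14.5% ± 3.05 and 21.04% ± 6.48 of retained barcodes (SD, n = 3 each), with overlap between the groups and an exact permutation p of 0.2.

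Of Scube2, Tnc and Mmp3, Tnc differed most in detection between the groups. Alveolar fibroblasts with a Tnc UMI made up 22.1%, 40.6% and 39.8%, against 17.9%, 10.6% and 17.4%, or 34.2% ± 10.4 and 15.3% ± 4.07 on average (SD, n = 3 each). Cells with 2 or more Scube2 UMIs, whatever their Tnc and Mmp3, made up 80.98% ± 2.03 and 85.9% ± 0.170. Most cells with Tnc also passed the Scube2 limit, since cells with both made up 30.9% ± 8.62 and 14.4% ± 3.98. Mmp3 was found in 14.1% ± 2.72 and 11.1% ± 0.223. In each of these 4 the groups did not overlap and the exact permutation p was 0.1. After thinning to 10000 UMIs the share of Scube2 cells differed by -19.8 points. Cells with 2 or more Scube2 UMIs then made up 72.6% ± 4.89 and 81.8% ± 1.64, a difference of -9.21 points against -4.95 without thinning. Tnc was then found in 28.8% ± 9.08 and 12.6% ± 3.35, and the groups overlapped for Mmp3 (exact permutation p 0.3).

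**Figure D2:**
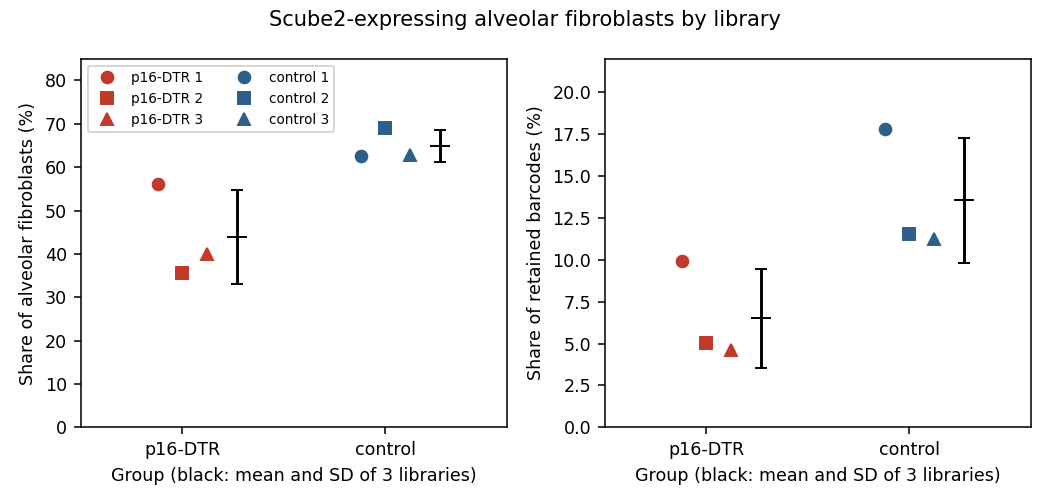
Share of Scube2 cells among alveolar fibroblasts (left) and among all retained barcodes (right), in percent, for the 3 libraries labelled p16-DTR and the 3 controls, with the mean and SD in black. Libraries labelled p16-DTR lie at 35.5% to 56.2% and 4.61% to 9.91%, below all controls at 62.5% to 69.1% and 11.2% to 17.8%.

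Within the chosen cells Scube2 itself was lower in libraries labelled p16-DTR, a value shaped by the rule and not tested. It stood at 516, 423 and 412 CPM against 688, 617 and 593 in controls, with no overlap. The median count per cell was 10, 8 and 8 UMIs against 14, 12 and 12. Scube2 lies on chromosome 7, 109798676 to 109865679, minus strand, in GRCm38. The other genes that the rule asked for differed less. Npnt stood at 2489, 2531 and 2449.7 CPM against 2464, 2462 and 2442, Tcf21 at 584, 456 and 487 CPM against 562, 511 and 532, and Pdgfra at 1531, 1538 and 1537 CPM against 1409, 1520.1 and 1388. Of the markers outside the rule, Itga8 stood at 2491, 2160.3 and 1969 CPM against 2741, 2721 and 2709. All libraries labelled p16-DTR were below the controls, but at a log2 fold change of -0.28 ± 0.10 (SE; edgeR adjusted p 0.196) it did not pass the test. Fat3 overlapped between the groups, at 554 to 858 CPM against 743 to 826. Of 12 genes tested in a wider list of alveolar fibroblast markers, 10 had a log2 fold change below 0, with a median of -0.13. None was called by edgeR and 2, both lower, by DESeq2 (5.31% of all genes). At an unadjusted p under 0.05 there were 0 higher and 4 lower, against 9.33% and 10.1% of all genes. Macf1, their highest in level, stood at 11774.6, 12236.7 and 10812.4 CPM against 14434.5, 13860.8 and 13543.4 (edgeR adjusted p 0.224, DESeq2 0.0255).

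Cdkn2a, which encodes p16, was higher in the Scube2 cells of libraries labelled p16-DTR, although the model is built to remove cells with high p16 from these mice. It stood at 5.77, 5.44 and 3.42 CPM against 0.0147, 0.117 and 0.200 in controls, from 184, 94 and 58 UMIs against 1, 4 and 8. The gene (chromosome 4, 89274471 to 89294653, minus strand) had a log2 fold change of 5.65 ± 0.54 (SE) with an edgeR adjusted p of 0.0265. With 1 library left out, the call was kept in 2 of 6 fits, those without control replicate 1 or 2, and the log2 fold change ran from 4.92 without control replicate 1 to 6.51 without control replicate 3. In the other 4 fits the edgeR adjusted p was up to 0.137. The UMIs lay in 119, 60 and 42 against 1, 4 and 5 cells, so most Scube2 cells of each library had none. Gene counts do not tell the p16 transcript from others of Cdkn2a, and every direction given here is that of the libraries as they are labelled. Cdkn2a runs against what the model is built to do. Whether the group labels are right was not checked in another way here. This and other causes of the difference were not tested. tdTomato, a red fluorescent protein with an entry of its own in the matrices, had 10, 1 and 7 UMIs in libraries labelled p16-DTR and 0 in 6135 control cells, pooled over 3 libraries, which allows a share of cells with a UMI of up to 0.0489% by counting error alone. The labels name no allele that carries tdTomato.

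Neutrophils, which lie outside the lineage, showed Cdkn2a in the same direction. They were taken as retained barcodes with at least 10 UMIs of S100a8, at least 1 of Retnlg and 0 of Pdgfra. Thinned to 5000 UMIs, 2.56% ± 0.681 of Scube2 cells had a Cdkn2a UMI where labelled p16-DTR, against 0.0311% ± 0.0294 of control cells (SD, n = 3 each; exact permutation p 0.1). Thinned neutrophils had 1.35% ± 0.582 (SD, n = 3) and 0 of 1554 control cells, pooled over 3 libraries, which allows a share of cells with a UMI of up to 0.193% by counting error alone. Without thinning the shares were 7.53% ± 1.25 and 0.198% ± 0.142 in Scube2 cells. In neutrophils, whose median depth was 9305 to 12135 UMIs, they were 4.86% ± 2.04 and 0.332% ± 0.286. In the third library labelled p16-DTR the thinned share was 1.78% in Scube2 cells and 2.01% in neutrophils, so Scube2 cells did not lie above neutrophils there. The part of free RNA in these counts was not tested.

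**Figure D3:**
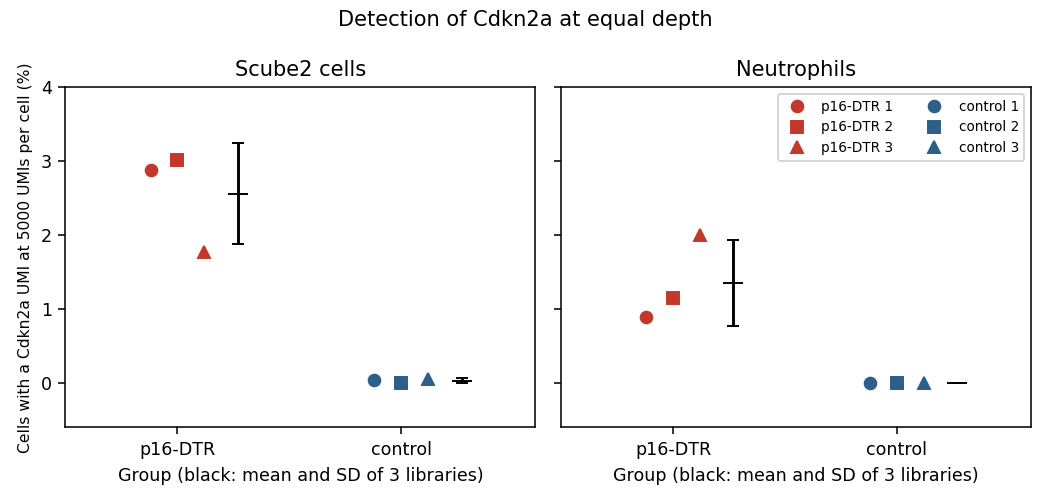
Percent of cells with a Cdkn2a UMI after thinning to 5000 UMIs, in Scube2 cells (left) and neutrophils (right), per library, with the mean and SD in black. Libraries labelled p16-DTR lie at 1.78% to 3.01% in Scube2 cells and at 0.892% to 2.01% in neutrophils, and the controls at 0% to 0.0584% and at 0%.

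Neither Cdkn1a nor Hbegf passed the test. Cdkn1a, which encodes the cell cycle inhibitor p21, stood at 91.7, 103 and 125 CPM against 102, 99.9 and 86.2, with overlapping groups and an edgeR adjusted p of 0.464. Hbegf, whose primate counterpart is the receptor for diphtheria toxin, stood at 1.22, 1.22 and 1.71 CPM against 2.19, 3.18 and 2.02 (edgeR adjusted p 0.149), with 39.6% to 81.0% of a library's UMIs in 10 cells.

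Of 15450 genes tested in Scube2 cells, 15 differed between the groups at an edgeR adjusted p under 0.05, which is 0.0971%. In libraries labelled p16-DTR 6 genes rose (0.0388%) and 9 fell (0.0583%). The genes of the rule were left out of this test. At an unadjusted p under 0.05 there were 2997 genes (19.4%; 9.33% higher and 10.1% lower), and in 3734 genes (24.2%; 10.3% higher and 13.9% lower) the groups did not overlap. DESeq2 called 820 genes (5.31%), with 324 higher and 496 lower, among them all 15. The edgeR count moved when a library of either group was left out. It was 1, 0 and 0 without p16-DTR replicate 1, 2 and 3, and 3, 63 and 0 without control replicate 1, 2 and 3. The fits with 0 calls had 3185, 2409 and 2172 genes at an unadjusted p under 0.05. With 1 library left out, none of the 15 was called in more than 2 of the 6 fits. Each of the 15 had the same direction in every alternative run for it. Scaling by library size alone gave 3 higher and 9 lower.

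Creld2, Ostc and Ssr2 were among the genes that rose. Creld2, an endoplasmic reticulum protein, stood at 39.8, 50.4 and 49.2 CPM against 29.4, 27.1 and 26.2. All libraries labelled p16-DTR lay above all controls, with a log2 fold change of 0.77 ± 0.09 (SE; edgeR adjusted p 0.0440). Ostc, a subunit of the oligosaccharyltransferase that attaches sugars to new proteins, stood at 91.97, 97.6 and 91.1 CPM against 70.3, 69.6 and 70.9 (edgeR adjusted p 0.0440). Ssr2, a subunit of the translocon-associated complex, stood at 98.1, 103 and 102 CPM against 77.9, 78.95 and 79.1 (edgeR adjusted p 0.0483). The control values of Ostc and Ssr2 were tight, and no group overlapped. None of the 3 was called by edgeR when a library was left out, with adjusted p of 0.05004 to 0.189. In GRCm38, Creld2 lies on chromosome 15, 88819646 to 88826683, Ostc on chromosome 3, 130695912 to 130709444, and Ssr2 on the same chromosome, 88575876 to 88588419.

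Dkk3 and Pdpk1 also rose. Dkk3, a secreted member of the dickkopf family (chromosome 7, 112116017 to 112159057), stood at 123, 137 and 130.3 CPM against 80.1, 90.7 and 84.5. Its log2 fold change was 0.63 ± 0.07 (SE; edgeR adjusted p 0.0267). Pdpk1, the kinase that activates AKT by phosphorylation (chromosome 17, 24073680 to 24150924), stood at 108, 116 and 109 CPM against 76.1, 80.3 and 78.8. Its log2 fold change was 0.52 ± 0.05 (SE; edgeR adjusted p 0.0265). Both genes had narrow groups well apart from each other. In the 2409 Tnc cells of the same mice the log2 fold changes were 0.57 for Dkk3 (edgeR adjusted p 0.0492) and 0.54 for Pdpk1 (0.0566).

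The genes that fell include a receptor, a noncoding RNA and a gene of cilia. Adora2a, which encodes an adenosine receptor (chromosome 10, 75316877 to 75334784), stood at 9.37, 12.7 and 10.4 CPM against 29.1, 21.2 and 24.6. The log2 fold change was -1.20 ± 0.15 (SE; edgeR adjusted p 0.0440), and it was found in 15.4% to 20.8% of cells against 29.9% to 36.1%. A530013C23Rik, a long intergenic noncoding RNA (chromosome 2, 167691177 to 167729172), stood at 26.5, 28.8 and 25.4 CPM against 62.1, 49.5 and 53.8. Its log2 fold change was -1.02 ± 0.09 (SE; edgeR adjusted p 0.0265). In both, every library labelled p16-DTR was well below every control. Ttc21a, a tetratricopeptide repeat protein tied to cilia (chromosome 9, 119937606 to 119967793), was scarce, at 2.76, 2.61 and 2.89 CPM against 6.40, 5.90 and 6.49 (edgeR adjusted p 0.0265), with up to 63.3% of a library's UMIs in 10 cells. All 5 markers of ciliated cells also had a log2 fold change below 0, with a median of -1.71; edgeR called none (0 higher and 3 lower at an unadjusted p under 0.05), and DESeq2 called Ccdc153 and Tmem212. Ccdc153 stood at 0.439, 0.174 and 0.236 CPM against 0.500, 3.74 and 2.12 and Tmem212 at 0.564, 0.232 and 0.531 CPM against 0.397, 3.91 and 2.10, where the first control lay among or near the libraries labelled p16-DTR. Without cells that had a UMI of Epcam, Pecam1, Hhip or Msln, the log2 fold change of Ttc21a was -0.85 and it did not pass the test (edgeR adjusted p 0.0948).

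Smaller drops were seen in 5 further genes. Mtss1l, which encodes an actin-binding and membrane-binding protein (chromosome 8, 110721476 to 110741400), stood at 15.4, 15.6 and 12.6 CPM against 27.2, 26.2 and 25.9 (edgeR adjusted p 0.0299). Plekhg2, a guanine nucleotide exchange factor (chromosome 7, 28359604 to 28372599), stood at 38.04, 47.03 and 41.2 CPM against 74.1, 66.3 and 68.8 (edgeR adjusted p 0.0411). Gcc1, a coiled-coil protein of the Golgi (chromosome 6, 28416091 to 28428390), stood at 23.4, 23.3 and 21.7 CPM against 36.6, 33.9 and 36.2 (edgeR adjusted p 0.0265). The groups did not overlap in any of them. The zinc finger genes Zfp277 (chromosome 12, 40315046 to 40445902) and Zfp618 (chromosome 4, 62965573 to 63139708) had log2 fold changes of -0.56 ± 0.06 and -0.65 ± 0.08 (SE; edgeR adjusted p 0.0265 and 0.0440). Zfp277 stood at 46.0, 47.7 and 43.1 CPM against 67.4, 69.1 and 68.04, and Zfp618 at 17.4, 15.7 and 17.99 CPM against 27.6, 24.9 and 28.8.

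Spp1, which encodes osteopontin, had the largest drop in fold among the 15, and it rested on few cells. It stood at 0.251, 0.579 and 0.531 CPM against 3.65, 5.40 and 7.14 (chromosome 5, 104435118 to 104441050; log2 fold change -3.64, edgeR adjusted p 0.0265). Libraries labelled p16-DTR held 8, 10 and 9 UMIs, each in a cell of its own. The controls held 248, 185 and 286 UMIs, of which 85.1%, 88.1% and 95.1% lay in 10 cells, and a single cell held 197, 113 and 137. The control level was thus set by a few cells per library. Without cells that had a UMI of Epcam, Pecam1, Hhip or Msln, the log2 fold change of Spp1 was -3.90 (edgeR adjusted p 0.105), and over all 15915 alveolar fibroblasts it was -0.05 (adjusted p 0.971). Whether those control cells were mixed droplets was not tested.

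**Figure D4:**
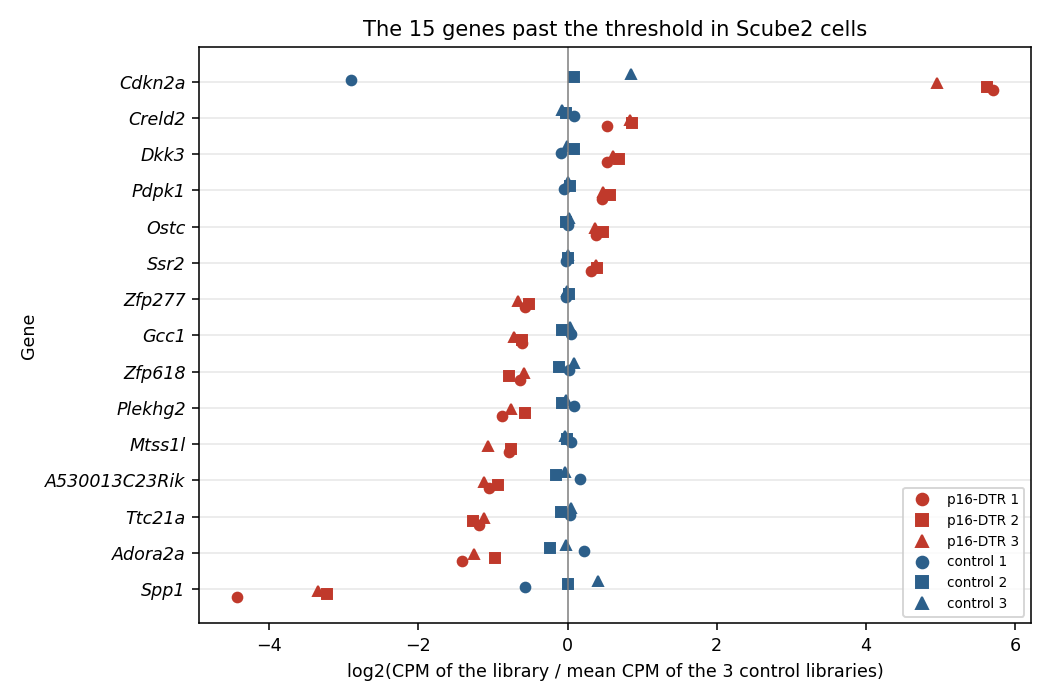
The 15 genes past the threshold in Scube2 cells, as log2 of each library's CPM over the mean CPM of the 3 controls. Each point is 1 library; Cdkn2a and Spp1 lie farthest from 0, and in every gene all 3 libraries labelled p16-DTR lie on 1 side of all 3 controls.

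Of 15 Hedgehog signalling genes tested, none passed edgeR's adjusted threshold and 13 had a log2 fold change below 0. In 6 the libraries labelled p16-DTR lay below all controls and in 1 above, where 13.9% and 10.3% of all genes do so. The list's median log2 fold change was -0.11, against 0.01 over all genes tested. At an unadjusted p under 0.05 there were 1 higher and 5 lower, where 9.33% and 10.1% of all genes were, and DESeq2 called 1, Gas1. Ptch1, the receptor and itself a target of the pathway, stood at 93.7, 82.2 and 80.6 CPM against 101, 96.5 and 95.6 (edgeR adjusted p 0.261). Gli1, the usual target used as a readout, was scarce, at 3.20, 4.34 and 4.54 CPM against 6.00, 4.76 and 5.54, and the transcription factor gene Gli2 had 39.7, 45.5 and 37.2 CPM against 46.5, 49.7 and 47.7 (edgeR adjusted p 0.214 and 0.207). Libraries labelled p16-DTR were the lower ones in these 3 genes. Gas1, a co-receptor, was above its controls, at 96.9, 103 and 106 CPM against 79.9, 80.4 and 92.97 (edgeR adjusted p 0.0998, DESeq2 0.0206). Boc, another co-receptor, overlapped, at 176 to 201 CPM against 168 to 204, as did Smo, the signal transducer, at 38.7 to 43.6 CPM against 42.4 to 47.05. Hhip, a decoy receptor also used as a peribronchial marker, varied within groups, at 10.1, 27.5 and 29.1 CPM against 17.7, 6.16 and 11.9. The ligand genes Shh and Ihh were at or below 0.117 CPM in every library, and Dhh at 0.116 to 0.295 CPM against 0.701 to 0.849 CPM. Here and in the lists that follow, genes other than those highest in level were chosen after their values were seen. All counts of list members are to be read against the shares over all genes tested, which were 9.33% higher and 10.1% lower at an unadjusted p under 0.05, 5.31% called by DESeq2, and 24.2% with groups that did not overlap.

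None of 24 genes for signals to the epithelium and vessels was called by edgeR, and their median log2 fold change was -0.02 (3 higher and 4 lower at an unadjusted p under 0.05). Angpt1, which encodes angiopoietin, was the highest of them in level, at 1479, 1058 and 1128 CPM against 1784, 1455 and 1359, with overlap. Bmp5, a BMP ligand, had 497 to 623 CPM against 502 to 575, and Vegfd 366 to 511 CPM against 396 to 448. Fgf10, a growth factor for alveolar type 2 cells, had 270.4, 365 and 359 CPM against 342, 339.9 and 403. The values of these 4 overlapped between the groups. DESeq2 called 1 gene, Nrg1, a ligand of ErbB receptors, at 47.4, 77.1 and 84.8 CPM against 33.3, 40.05 and 53.4 (edgeR adjusted p 0.147, DESeq2 0.0194). For Wnt2 the values were 164, 180.5 and 152 CPM against 216, 204 and 178 (edgeR adjusted p 0.216), and for Wnt5a 13.4, 18.01 and 14.04 CPM against 11.8, 11.01 and 12.2, the 1 gene of the list above all its controls.

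Among 15 genes of nephronectin and integrin adhesion, none was called by edgeR (1 higher and 2 lower at an unadjusted p under 0.05) and the median log2 fold change was 0.03. Vcl, which encodes vinculin, stood at 568, 633 and 538 CPM against 851, 775 and 761 (log2 fold change -0.44 ± 0.09 SE, edgeR adjusted p 0.0832, DESeq2 0.000167). Itgb5, an integrin beta chain, lay above its controls, at 172, 145 and 161 CPM against 132, 134 and 137 (edgeR adjusted p 0.129, DESeq2 0.0401). Besides Vcl, only Itga8 of this list lay below all its controls. Tns1, which encodes tensin, had 1566 to 1744 CPM against 1638 to 1781, and Itgb1, the beta chain that pairs with that of Itga8, 659.6 to 695 CPM against 668 to 728.

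None of 21 elastic fibre genes was called by edgeR, and 17 had a log2 fold change above 0, with a median of 0.19. In 7 the libraries labelled p16-DTR lay above all controls and in 1 below, against 10.3% and 13.9% of all genes, and DESeq2 called 5, all higher (10 higher and 0 lower at an unadjusted p under 0.05). Mfap5, a microfibril protein also listed as an adventitial marker, stood at 158, 151 and 172 CPM against 117, 98.8 and 106 (edgeR adjusted p 0.0525, DESeq2 5.31e-08). Fbln1, which encodes a fibulin, stood at 154, 200.3 and 173 CPM against 136, 126 and 135, and Efemp2, another fibulin, at 46.4, 45.6 and 44.5 CPM against 36.6, 40.3 and 37.99. Both were above their controls in all 3 libraries. Ltbp2 stood at 14.2, 14.7 and 24.5 CPM against 4.62, 8.70 and 6.04, with up to 70.1% of a library's UMIs in 10 cells. Lox, a crosslinking enzyme, had 401, 334 and 451 CPM against 253, 335 and 239. The highest in level, Mfap4, overlapped, at 1726 to 2208 CPM against 1837 to 2601, as did Eln, which encodes elastin, at 606 to 905 CPM against 553 to 879.7.

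Of 25 collagen genes, 13 had a log2 fold change above 0 and 12 below. None was called by edgeR (6 higher and 6 lower at an unadjusted p under 0.05), and DESeq2 called 2 higher and 4 lower. The groups did not overlap in 7 of 25 (28%), near the 24.2% of all genes. The fibrillar chains Col1a1 and Col3a1 had log2 fold changes of 0.28 ± 0.08 and 0.41 ± 0.12 (SE; DESeq2 adjusted p 0.0276 and 0.0250). Col1a1 stood at 379, 433 and 444 CPM against 365, 327 and 358, and Col3a1 at 522, 639.7 and 694 CPM against 483, 411 and 523. Basement membrane chains lay on both sides of 0. Col4a5 stood at 169, 163 and 174 CPM against 234, 205 and 211 (edgeR adjusted p 0.0835, DESeq2 0.000760), whereas Col4a2 stood at 254, 234 and 309.8 CPM against 220.4, 219 and 213. Col13a1, a transmembrane collagen and marker of alveolar fibroblasts, had 397, 419.9 and 341 CPM against 559, 509 and 444. Col4a3 and Col4a4 were below their controls too but scarce, with up to 85.7% and 66.1% of a library's UMIs in 10 cells.

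Of 22 laminin, nidogen and proteoglycan genes, 15 had a log2 fold change above 0 and none was called by edgeR; DESeq2 called 4 higher and 1 lower (7 higher and 2 lower at an unadjusted p under 0.05, against 9.33% and 10.1% of all genes). Bgn, which encodes biglycan, stood at 1336, 1307 and 1364 CPM against 1035, 1108 and 1039 (edgeR adjusted p 0.0832, DESeq2 2.69e-06). Sparc, a collagen-binding protein, stood at 1218, 1203 and 1351 CPM against 922, 1026 and 996. Lamc1, a laminin chain and the 1 lower call, stood at 381, 439 and 424 CPM against 603, 486 and 513. These 3 had groups that did not overlap. Spon1 and Ogn, the highest of the list in level, had 2062 to 2461 CPM against 1859 to 2167 and 1963 to 2418 CPM against 1985 to 2102. Among 25 genes of matrix turnover, edgeR called none and DESeq2 2 in each direction (6 higher and 5 lower at an unadjusted p under 0.05). The protease gene Mmp19 had 36.3, 40.02 and 40.2 CPM against 25.1, 30.5 and 29.5, and Adamts12 had 120.0, 87.1 and 88.2 CPM against 148, 135 and 135.

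Lipid and retinoid genes, for which lipid-storing fibroblasts are known, had median log2 fold changes of 0.00 and -0.12. None of 32 lipid genes was called by edgeR (6 higher and 3 lower at an unadjusted p under 0.05), and DESeq2 called Abca1, a cholesterol exporter, as higher and Pparg, a transcription factor of fat storage, as lower. Pparg stood at 42.9, 32.3 and 27.7 CPM against 79.4, 55.6 and 46.3 (edgeR adjusted p 0.129, DESeq2 0.00833). Inmt, a methyltransferase gene typical of these cells, stood at 5149 ± 937 CPM against 5572 ± 507 (SD, n = 3 each), and Apoe, which carries lipids, at 2001, 1472 and 1700.0 CPM against 1364, 777 and 1461. Pparg and Apoe thus lay on opposite sides with no overlap in either. Of 14 retinoid genes neither tool called any (0 higher and 2 lower at an unadjusted p under 0.05). Aldh1a1, which makes retinoic acid, stood at 2765, 1970.4 and 2615 CPM against 1979, 2346 and 2087, and Lrat at 219.5, 114 and 167 CPM against 195, 356 and 177, both with overlap.

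TGF-beta, fibrogenic and growth factor genes gave 1 edgeR call, Spp1. Of 34 TGF-beta and BMP genes edgeR had 6 higher and 2 lower at an unadjusted p under 0.05, and DESeq2 called Tgfbr3 and Id1 as higher. Tgfbr3, which encodes the co-receptor betaglycan, stood at 1434, 1086 and 1289 CPM against 699, 1035 and 1022 (edgeR adjusted p 0.176), with the first control far below the other controls. Id1, a BMP target, stood at 58.7, 49.1 and 48.8 CPM against 30.2, 44.9 and 35.8. Of 16 fibrogenic genes, DESeq2 called Ltbp2, Col1a1, Lox and Col3a1, which stand in the lists above too, as higher and Spp1 as lower. Acta2, which encodes smooth muscle actin, had 19.1, 30.3 and 21.2 CPM against 14.8, 29.4 and 45.6. Of 20 growth factor receptors and ligands, edgeR had 4 higher and 2 lower at an unadjusted p under 0.05, and DESeq2 called Fgfr1 as higher, at 252, 246 and 270.1 CPM against 201, 226 and 209.8, and Gfra2, a receptor for neurturin, as lower, at 72.3, 66.6 and 58.98 CPM against 98.1, 83.9 and 89.0.

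Of 27 genes of p16, p53 and arrest, Cdkn2a was the 1 edgeR call, and 18 had a log2 fold change above 0. In 6 the libraries labelled p16-DTR lay above all controls and in 6 below, where 10.3% and 13.9% of all genes do so. At an unadjusted p under 0.05 there were 9 higher and 5 lower, and DESeq2 called 4 higher and 2 lower. Ccnd2, a cyclin of the D type, stood at 21.6, 35.2 and 34.9 CPM against 17.2, 16.9 and 16.7 (edgeR adjusted p 0.0832, DESeq2 0.000207). Zmat3, a p53 target, had 19.1, 22.99 and 22.3 CPM against 14.8, 18.1 and 15.1. On the lower side, Gadd45b, a stress-induced gene, stood at 221, 213 and 227 CPM against 346, 299 and 289 (edgeR adjusted p 0.0773, DESeq2 1.53e-05), and Cdkn1c, which encodes the inhibitor p57, at 28.01, 25.7 and 30.2 CPM against 35.7, 34.7 and 37.96. Of 26 genes of the senescence secretome none was called by edgeR (4 higher and 3 lower at an unadjusted p under 0.05), and DESeq2 called 2 higher and 1 lower. Cxcl1, which attracts neutrophils, had 15.1, 10.2 and 18.9 CPM against 76.04, 40.4 and 28.9 (edgeR adjusted p 0.0882), with up to 75% of a library's UMIs in 10 cells, and Igfbp7 had 904, 954 and 1188 CPM against 801, 718 and 734 (edgeR adjusted p 0.0998).

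Interferon and NF-kB genes lay mostly on opposite sides of 0, and edgeR called none of either. Of 27 interferon genes 21 were above 0, with a median of 0.15; of 18 NF-kB feedback genes 12 were below it, with a median of -0.15. At an unadjusted p under 0.05 there were 8 higher and 2 lower in the first list and 1 higher and 6 lower in the second, and DESeq2 called 4 higher and 1 lower, and 0 higher and 4 lower. The groups did not overlap in 7 of 27 (25.9%) and 6 of 18 (33.3%), against 24.2% of all genes. B2m, the light chain of MHC class I, stood at 924, 740.2 and 863 CPM against 665, 709 and 687 (edgeR adjusted p 0.139, DESeq2 0.0259). Irf1, which both pathways induce, stood at 81.1, 85.9 and 84.9 CPM against 149, 95.1 and 162, below its controls. Tnfaip2 stood at 83.3, 83.8 and 86.3 CPM against 129, 115 and 113 (edgeR adjusted p 0.0626, DESeq2 2.36e-06), and Icam1, an adhesion molecule, at 98.8, 85.95 and 93.7 CPM against 141, 112 and 125. Rsad2 and Ifit1 were higher on average but rested on few cells, with up to 100% and 78.9% of a library's UMIs in 10. Of 12 complement genes 10 were above 0 (2 higher and 1 lower at an unadjusted p under 0.05; 0 edgeR calls), and DESeq2 called 1, Serping1, the inhibitor of C1, at 2027, 1812 and 1940.4 CPM against 1649.5, 1701 and 1630.2.

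Among hormone, clock and stress genes, some differed widely between the controls. Of 20 glucocorticoid-induced genes 17 were above 0, with a median of 0.46; edgeR called none (9 higher and 1 lower at an unadjusted p under 0.05, where 9.33% and 10.1% of all genes were), and DESeq2 called Mt2 and Sgk1 as higher and Nr3c2, the mineralocorticoid receptor, as lower. Fkbp5, a standard target, stood at 274, 186 and 378 CPM against 40.5, 156 and 118, and Tsc22d3, another, at 565, 503 and 648 CPM against 149, 395 and 385. The first control was the lowest library in both, and also in Zbtb16, at 1858, 1746 and 1793 CPM against 666, 1562 and 1562. None of 18 clock genes was called by edgeR (2 higher and 4 lower at an unadjusted p under 0.05; 1 by DESeq2), with a median of 0.17. The clock genes Npas2 and Arntl had 40.9, 21.2 and 44.2 CPM against 145, 44.8 and 93.4, and 71.8, 56.1 and 84.7 CPM against 152, 79.9 and 119, with the first control highest. Of 30 immediate early and dissociation genes 22 were below 0, with a median of -0.18; edgeR called none (3 higher and 8 lower at an unadjusted p under 0.05) and DESeq2 7 lower and 2 higher. Egr1 had 1272, 1335 and 1234 CPM against 2085, 1658 and 1847 (edgeR adjusted p 0.0832, DESeq2 1.53e-05), while Hsph1, which encodes a heat shock protein, had 70.7, 111 and 78.7 CPM against 40.5, 58.9 and 54.5. All 3 cold-induced genes were below 0 (0 higher and 2 lower at an unadjusted p under 0.05; 0 edgeR calls, 1 by DESeq2). Cirbp, an RNA-binding protein among them, had 45.97, 30.1 and 46.8 CPM against 72.3, 58.1 and 66.4 (edgeR adjusted p 0.103). The part of the time of day and of handling in these values was not tested.

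**Figure D5:**
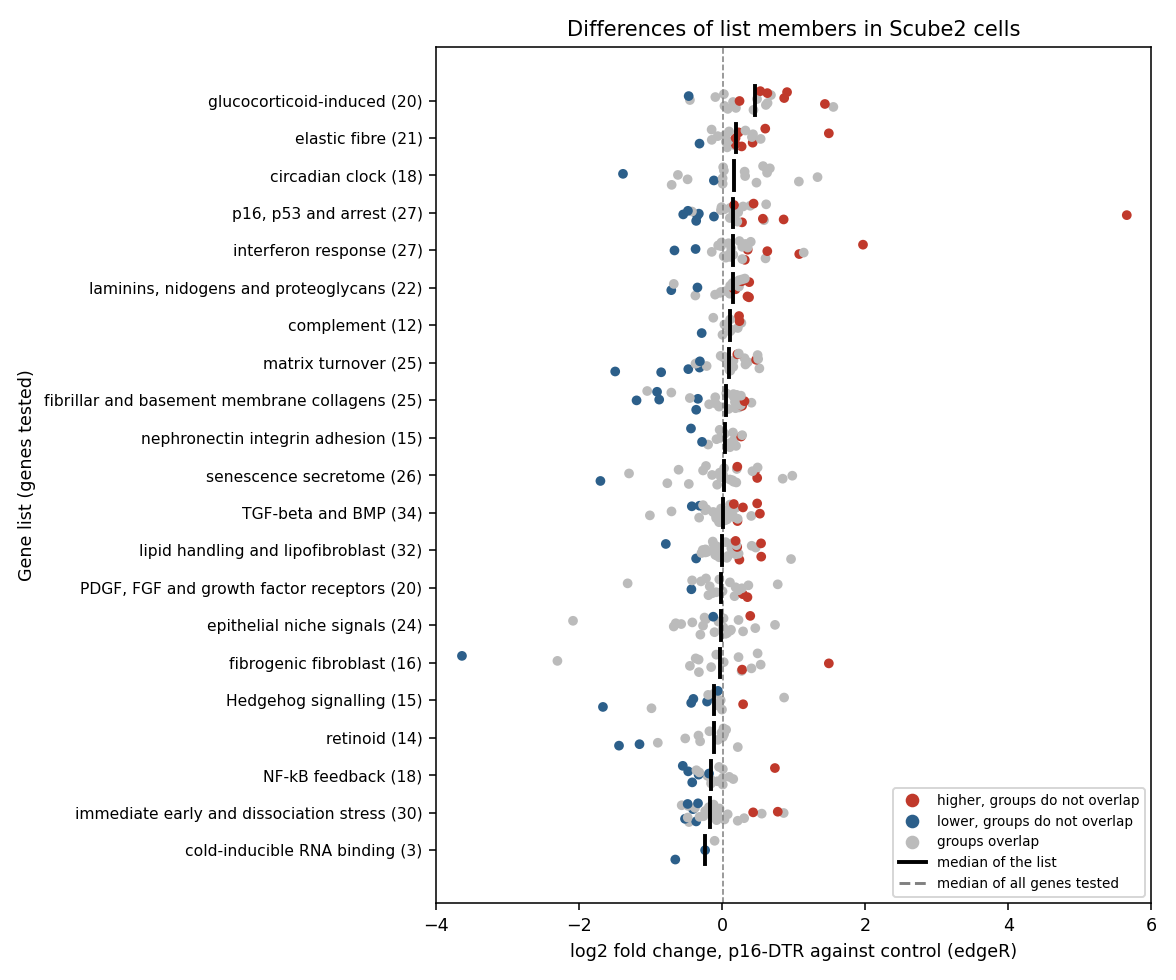
log2 fold changes of the tested members of 21 pathway lists, libraries labelled p16-DTR against control; red and blue points are genes whose groups do not overlap, black bars are list medians and the dashed line is the median of all genes tested, 0.01. Medians run from -0.24 for 3 cold-induced genes to 0.46 for 20 glucocorticoid-induced genes; Cdkn2a and Spp1 are the points farthest from 0.

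Markers of myeloid, lymphoid, endothelial and alveolar type 2 cells were lower in the Scube2 cells than in all other barcodes, while the summed levels of pericyte and smooth muscle markers overlapped with those of the other barcodes and mesothelial markers were higher. Summed over 9 endothelial markers the level was 24.5 to 26.9 CPM in libraries labelled p16-DTR, against 20.6 to 26.4 CPM in controls, where all other barcodes had 2482 to 4037; Cdh5 was 0 by the rule. The 8 lymphoid markers came to 11.9 to 14.8 CPM in libraries labelled p16-DTR, against 9.84 to 14.9 CPM. The 8 alveolar type 2 markers came to 83.9 to 690.0 CPM in libraries labelled p16-DTR, against 179 to 357 CPM, and up to 88.2% of a library's Sftpc UMIs lay in 10 cells. The 9 myeloid markers came to 36.1 to 90.3 CPM in libraries labelled p16-DTR, against 41.4 to 86.2 CPM, where all other barcodes had 2454 to 3493, and the 5 neutrophil markers to 22.2 to 43.1 CPM in libraries labelled p16-DTR, against 15.4 to 40.5 CPM. Myeloid, neutrophil and surfactant RNA was thus uneven between libraries, with overlapping groups. The 5 secretory markers came to 26.5 to 38.7 CPM in libraries labelled p16-DTR, against 32.1 to 1130.4 CPM, the highest from the third control, where 1 cell held 43284 of 44556 Scgb1a1 UMIs. Their median log2 fold change was -1.54, and that of 8 alveolar type 1 markers, which came to 53.8 to 70.5 CPM in libraries labelled p16-DTR, against 60.5 to 93.03 CPM, was -0.67 with 7 below 0. Neither edgeR nor DESeq2 called any in these lists (0 higher and 3 lower, and 0 higher and 0 lower, at an unadjusted p under 0.05). The 8 pericyte markers came to 105 to 148 CPM in libraries labelled p16-DTR, against 142 to 156 CPM; 3 of 8 lay below all their controls and 0 above, where 13.9% and 10.3% of all genes do so. None was called by edgeR (0 higher and 4 lower at an unadjusted p under 0.05), and DESeq2 called 2 lower. The pericyte marker Trpc6 rested on few cells, as 10 cells held 93.0% to 96.7% of its UMIs in each control. The 7 smooth muscle markers came to 197 to 277 CPM in libraries labelled p16-DTR, against 166 to 328 CPM, where all other barcodes had 183 to 356. All 6 that were tested had a log2 fold change below 0, with a median of -0.79; edgeR and DESeq2 called none (0 higher and 4 lower at an unadjusted p under 0.05, where 10.1% of all genes were lower), and the groups did not overlap in 1. The 6 peribronchial markers came to 165 to 225 CPM in libraries labelled p16-DTR, against 142 to 174 CPM. All 5 that were tested had a log2 fold change above 0, with a median of 0.25. Neither tool called any of them (2 higher and 0 lower at an unadjusted p under 0.05, where 9.33% of all genes were higher). The 6 mesothelial markers came to 287 to 327 CPM in libraries labelled p16-DTR, against 281 to 354 CPM, above all other barcodes at 63.7 to 126, but nearly all of it was Upk1b, at 286 to 326 CPM against 278 to 349.8, while Msln was at or below 0.643 CPM. The 10 adventitial markers overlapped between the groups, at 490.2 to 627 CPM in libraries labelled p16-DTR, against 382 to 669.6 CPM. Leaving out all cells with a UMI of Epcam, Pecam1, Hhip or Msln gave 42 edgeR calls, 13 of them among the 15. The part of mixed droplets in the other results was not tested.

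Whether the group difference was alike in Tnc cells was tested as an interaction, with the library as a block. Against the 78 Tnc cells without Scube2, 31 of 13463 genes (0.230%) differed at an edgeR adjusted p under 0.05, 14 with a higher log2 fold change in Scube2 cells and 17 with a lower one; DESeq2 called 2. The counts behind them were small. Sulf1, a sulfatase that trims heparan sulfate, had 3, 33 and 24 UMIs against 153, 17 and 25 in the Tnc cells, with 60% of all in 1 library. In the Scube2 cells it had 42.6, 64.7 and 68.2 CPM against 49.97, 42.8 and 51.8 (edgeR adjusted p of the difference 2.75e-05). Ccl2, which attracts monocytes, had 323, 28 and 178 UMIs against 34, 0 and 0 in the Tnc cells and 6.80, 1.91 and 1.00 CPM against 8.75, 4.91 and 4.24 in the Scube2 cells (edgeR adjusted p 1.46e-06). Trpc6, a calcium channel gene also used as a pericyte marker, had 144, 47 and 2 UMIs against 0, 0 and 0 in the Tnc cells (edgeR adjusted p 4.05e-09). Each of these 3 contrasts thus leaned on 1 or 2 libraries of few Tnc cells.

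With all 2409 Tnc cells as the comparison, an alternative added after the data were seen, Trpc6 was the 1 edgeR call among 14661 genes (0.00682%), and DESeq2 called 12. Trpc6 stood at 17.1, 3.93 and 5.61 CPM against 0.341, 0.248 and 0.383 in these Tnc cells and at 1.72, 0.232 and 0.295 CPM against 1.26, 5.05 and 3.07 in the Scube2 cells (edgeR adjusted p 0.00125). The 2409 Tnc cells include the 78 without Scube2. Those 78 alone held 144, 47 and 2 Trpc6 UMIs in libraries labelled p16-DTR, against 0, 0 and 0. The call is thus not independent of the one against the 78. In the Scube2 cells of the first library labelled p16-DTR a single cell held 96.4% of the Trpc6 UMIs, and in each control 10 cells held 93.0% to 96.7%. In this edgeR fit a different group effect was not shown for the other genes, which does not show that they were alike.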

How the data were processed

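Deposited values are raw UMI counts, 1 for each gene in each barcode, without normalization, made by the authors with Cell Ranger 8.0.1 on mm10, per the file headers and the submitters' processing notes. Cell calling settings and the annotation release are not given in the sources used here. Each library has 1 file of 31054 features, with 254200305 to 344421685 UMIs in all. Gene positions come from GENCODE M21 (GRCm38), which matched 30934 features.

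From these files, barcodes were filtered, cells were taken by the counting rule and UMIs were summed per library, since cells are not replicates. Sums were tested with edgeR 4.0.16 (filterByExpr, TMM, quasi-likelihood F test, group alone as design) in R 4.3.3, with Benjamini-Hochberg adjustment over all genes tested at 0.05. The 8 rule genes stayed in the library sizes and out of the tests. The interaction used 2 sums per library with the library as a block. Shares were compared by exact permutation over libraries, with 95% Wilson intervals per library. Cells were thinned to 10000 UMIs for variation and shares and to 5000 for Cdkn2a, leaving out shallower cells; a count of 0 was read as up to 3. No doublet caller was run. Tables were made in Python 3.11.15 (pandas 2.3.3, numpy 2.4.6, scipy 1.17.1) and figures with matplotlib 3.10.9. The tests were first tested on simulated data.

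Members and gene lists were chosen with earlier results of these data known. Named genes are Cdkn2a, Cdkn1a, tdTomato, Hbegf, the rule genes, called genes whose groups do not overlap (up to 12 per direction), called members of each list or else its 3 highest in mean CPM, up to 5 interaction calls per direction, and the leading genes by lowest fold in the descriptions; 1 gene that the rule names is not reported here. The alternatives were DESeq2 1.42.0, other scalings, all genes kept whatever their counts, each library left out, a block for replicate numbers, other Scube2 and mitochondrial limits, equal cell numbers, and cells of high UMI count or mixed markers left out. Nothing says whether mice of 1 group shared a litter or a day, which could not be told apart from the group itself. P-values set the group difference against the spread between these libraries. No sequences are printed, as the counts are per gene.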

Additional observations from a re-analysis of the deposited data

Results flagged for a closer look

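The group difference in Scube2 cells was set against that in the 78 Tnc cells without Scube2, and 31 genes had a different log2 fold change by edgeR's interaction test. In the direction of a higher value in Scube2 cells these include Sulf1 (adjusted p 2.75e-05), Tmeff2 (0.00574), Smoc2 (0.00973), Igf1 (0.0167) and Lpl (0.0167). In the Tnc cells Lpl, which encodes lipoprotein lipase, had 7, 35 and 14 UMIs against 307, 4 and 13 in controls, Igf1 had 10, 33 and 21 UMIs against 107, 8 and 12, Smoc2 had 3, 7 and 3 UMIs against 66, 0 and 9, and Tmeff2 had 1, 0 and 1 UMIs against 54, 1 and 20, so the first control held most of them. In the other direction they include Trpc6 (adjusted p 4.05e-09), Ccl2 (1.46e-06), Postn (0.000421), Adcy8 (0.00365) and Clstn2 (0.00574). Postn, which encodes periostin, had 76, 55 and 7 UMIs against 15, 0 and 0, Adcy8 had 32, 36 and 0 UMIs against 0, 1 and 0, and Clstn2 had 56, 18 and 0 UMIs against 0, 0 and 0. Of the genes named here, DESeq2 called only Sulf1 and Adcy8 (adjusted p 0.00551 for both). Against all 2409 Tnc cells, which include these 78, edgeR called only Trpc6 (adjusted p 0.00125). The others then had edgeR adjusted p from 0.0776 for Adcy8 and Clstn2 to 0.9999 for Igf1.

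In the Scube2 cells Lpl stood at 17.9, 15.5 and 34.2 CPM against 17.1, 17.4 and 14.6, Igf1 at 37.4, 45.0 and 47.2 CPM against 38.2, 19.8 and 36.7, and Smoc2 at 8.84, 20.8 and 28.4 CPM against 17.9, 9.38 and 19.3. Of each gene named here, 49.7% to 80.8% of the UMIs in Tnc cells came from 1 library. When libraries were left out in turn, the number of genes called ran from 26 to 127.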

How the results depend on the processing

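Against 15 genes between the groups in the main edgeR fit, the count was 245 without the filter on low counts, 820 by DESeq2, 64 with equal cell numbers, 44 without cells of over 2 times the median UMIs, 42 without cells of mixed markers and, added after the data were seen, 8 over all alveolar fibroblasts. It ran from 0 to 63 when 1 library was left out. RLE size factors gave 13 (4 higher, 9 lower) and library size alone 12 (3 and 9, against 6 and 9). For the interaction with Tnc cells, 31 became 73 without the filter, 2 by DESeq2, 14 with at least 3 Scube2 UMIs, and 26 to 127 with 1 library left out. Against all Tnc cells it was 1 by edgeR, 12 by DESeq2, and 1 to 4 with 1 library left out. The cause of these moves was not tested. By construction, the settings change which cells, genes or libraries enter, the scaling or the tool. Both shares of Scube2 cells kept their direction, from -27.1 to -16.8 points of alveolar fibroblasts and from -8.72 to -4.89 points of retained barcodes with 1 library left out. For both, the exact permutation p was 0.1 without any 1 library labelled p16-DTR and 0.2 without any 1 control. Neither 3 against 3 nor 3 against 2 libraries can give a value below 0.1, so neither can reach 0.05.

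The deviations of same-numbered libraries from their group means had correlations of -0.0878, -0.0530 and 0.0723, and those of other pairs ran from -0.124 to 0.171. With 3 libraries per group these values cannot tell whether the numbers pair the mice. With the replicate block 57 genes were called, 11 of them among the 15. Of 2263 alternatives for 126 genes that were called, lead a pathway list or have group values in the report, 2046 kept direction and side of the threshold, 101 lost the call, 83 gained it and 33 changed sign, in 12 genes.

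With 1 library left out, the log2 fold change of Boc ran from -0.0849 to 0.0572, the log2 fold change of Bmp5 from -0.0068 to 0.1449, the log2 fold change of Vegfd from -0.1652 to 0.1058, the log2 fold change of Tns1 from -0.0937 to 0.0029, the log2 fold change of Inmt from -0.2419 to 0.0339, the log2 fold change of Rora from -0.0260 to 0.0766, the log2 fold change of Cry2 from -0.1149 to 0.1184, the log2 fold change of Acta2 from -0.6621 to 0.1038, the log2 fold change of Fat3 from -0.2744 to 0.0319, the log2 fold change of Fgf10 from -0.1843 to 0.0115, the log2 fold change of Itgb1 from -0.0690 to 0.0106 and the log2 fold change of Upk1b from -0.0369 to 0.1370. With library size alone, the log2 fold change of Vegfd was -0.0036, that of Rora -0.0069 and that of Cry2 -0.0146. With at least 1 Scube2 UMI, Vegfd had -0.0003 and Cry2 -0.0040. With equal cell numbers, Vegfd had -0.0037 and Rora -0.0282. Over all alveolar fibroblasts Vegfd had -0.0384, Acta2 0.1091 and Itgb1 0.0337, without cells of mixed markers Rora had -0.0057, and without cells of high UMI count Cry2 had -0.0067.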
